A study of Mus musculus with 2 samples.

Results

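The respiratory chain subunits encoded in the nucleus were read from 2 polyA mRNA libraries of G1E-ER4, a mouse erythroid line in which Gata1 function was restored to a Gata1-null background as a fusion that responds to estradiol. Both libraries are labelled as the same treatment, 10 nM 17beta-estradiol for 14 h, as biological replicates 2 and 1 of the same experiment, and as a male immortalized line of postnatal origin. The labels give both libraries the same biosample, so the spread between them may be technical, and there is no untreated group here. The members were all nuclear protein-coding genes whose symbols begin with Ndufa, Ndufb, Ndufc, Ndufs, Ndufv, Uqcr, Cox4i, Cox5, Cox6, Cox7, Cox8 or Atp5, with Sdha, Sdhb, Sdhc, Sdhd, Cyc1 and Cycs, and without the Ndufaf assembly factors. This gave 87 genes of 21461 nuclear protein-coding genes in the tables, of which 36 belong to complex I, 4 to complex II, 9 to complex III, 20 to complex IV and 17 to complex V, with Cycs for cytochrome c.

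Complex I takes electrons from NADH and complex II takes them from succinate, both pass them to ubiquinone, complex III passes them on to cytochrome c, and complex IV reduces oxygen. Complexes I, III and IV pump protons, and complex V, the ATP synthase, uses the gradient to make ATP. Most subunits are encoded in the nucleus and imported, while a small set of hydrophobic core subunits is encoded in mitochondrial DNA. Erythroid precursors use mitochondria for ATP and for the first and last steps of haem synthesis, and lose them as the cell matures. NRF1, GABPA (an ETS factor) and YY1 are transcription factors known to bind many promoters of these genes.

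The promoters of 4 members are shown because they stand at the ends of what follows. Cox6a1 had the highest level of all members and Cycs one of the lowest of the expressed ones, and Cox6b2 is usually described as a testis form but had a gene TPM above that of its widespread counterpart Cox6b1 in both libraries, although the difference was within 2 times the range between the libraries and held, on protein-coding transcripts alone, in replicate 1 only. Sequences are from RefSeq on GRCm38.p6, 5′ to 3′ on the gene's strand, and capitals mark GCATGCGC, a part of the NRF1 palindrome, and CCGGAAG, an ETS motif, on either strand. The Cycs window is chr6:50566570-50566819 and that of Cox6a1 is chr5:115348959-115349208, in each case the 250 bases before the RefSeq start on the minus strand. Those of Cox6b1, chr7:30626125-30626364, and Cox6b2, chr7:4753105-4753344, are the 240 bases that end 10 bases before the RefSeq start, also on the minus strand.
Cox6a1: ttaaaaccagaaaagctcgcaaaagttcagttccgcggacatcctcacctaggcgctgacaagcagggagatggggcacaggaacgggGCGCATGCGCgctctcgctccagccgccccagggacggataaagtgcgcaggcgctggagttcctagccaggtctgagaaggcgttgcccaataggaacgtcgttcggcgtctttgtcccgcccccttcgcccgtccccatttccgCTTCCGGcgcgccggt
Cycs: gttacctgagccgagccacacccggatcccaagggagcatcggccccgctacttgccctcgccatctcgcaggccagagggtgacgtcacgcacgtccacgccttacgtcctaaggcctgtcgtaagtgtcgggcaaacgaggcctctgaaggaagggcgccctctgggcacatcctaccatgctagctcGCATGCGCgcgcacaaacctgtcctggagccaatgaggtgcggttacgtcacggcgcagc
Cox6b1: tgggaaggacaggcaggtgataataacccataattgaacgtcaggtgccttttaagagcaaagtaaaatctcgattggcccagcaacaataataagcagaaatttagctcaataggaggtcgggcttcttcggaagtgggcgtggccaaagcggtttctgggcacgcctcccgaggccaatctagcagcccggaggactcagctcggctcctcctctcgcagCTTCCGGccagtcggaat
Cox6b2: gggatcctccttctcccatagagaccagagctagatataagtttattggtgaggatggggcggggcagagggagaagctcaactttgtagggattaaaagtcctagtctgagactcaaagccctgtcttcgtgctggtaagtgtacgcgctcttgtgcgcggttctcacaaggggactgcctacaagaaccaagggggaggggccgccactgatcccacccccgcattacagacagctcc
In Cox6a1 the capitals of the first run are the NRF1 letters on both strands, overlapping by 6 bases, and the second run is the ETS motif on the minus strand of the gene. Cycs holds the NRF1 letters and no CCGGAAG, Cox6b1 the ETS motif alone, and Cox6b2 neither. In GENCODE the minus-strand genes Cox6a1 and Cox6b1 start further upstream, at chr5:115348981 and chr7:30626151. The ETS motif of both therefore lies before the RefSeq start but within the GENCODE gene.

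RefSeq promoters of 250 bases before to 50 after the start were found for 68 of the 87 members, 73 promoters in all, because some genes have several. GCATGCGC was found on either strand in 11 of 73 (15.1%), against 2.7% of all 32851 promoters of the same length and 6.2% of the 8231 promoters of nuclear protein-coding genes with at least 1 TPM in both libraries. AAGATGGC, the YY1 letters, was in 9 of 73 (12.3%), against 2.7% of all promoters and 5.6% of those of expressed genes. CCGGAAG was in 16 of 73 (21.9%), against 8.9% of all promoters but 21.7% of those of expressed genes. AGATAA, the GATA letters, was in 6 of 73 (8.2%), against 11.2% of all and 5.8% of expressed genes. ACGTG, the core of the hypoxia response element, was in 18 of 73 (24.7%), against 19.6% of all and 27.5% of expressed genes. Members' promoters had a median GC content of 57.3%, against 61.7% for expressed genes and 52.7% for all promoters.

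The libraries held 60097379 and 38395479 expected counts in replicates 2 and 1, a depth ratio of 1.57, and 3 counts, the limit that a count of 0 allows, corresponded to 0.0499 and 0.0781 CPM. All 9 erythroid markers were expressed, and testis markers (Tnp1, Prm1, Ldhc, Ddx4) were at 0 TPM in both libraries. Of heart and skeletal muscle markers, Actc1 and Ckm were at 0 and the 4 summed to at most 0.22 TPM, and no fibroblast, endothelial or lymphoid marker reached 1 TPM in both libraries. Of myeloid markers Spi1 was expressed (19.7 and 22.3 TPM in replicates 2 and 1), and of megakaryocyte markers Gp1ba (56.8 and 47.7 TPM) and Itga2b (6.09 and 4.84 TPM). The libraries differed widely for 1 labelled condition: Hbb-bs, the adult beta globin, had 49652 and 13158 TPM in replicates 2 and 1, while Klf1 had 754 and 1422 TPM. The part of these differences in the results was not tested, and in bulk RNA fewer cells of a type and less RNA per cell cannot be told apart.

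Respiratory chain messages were abundant in these cells. Of the 87 members, 80 had at least 1 TPM in both libraries and 45 at least 50 TPM in both. The 87 together summed to 25846 TPM in replicate 2 and 28098 TPM in replicate 1, which was 2.58% and 2.81% of all TPM, and to 1.27% and 1.16% of expected counts. Their median level in TPM was 112.5 for replicate 2 and 67.5 for replicate 1. The same median was 164 and 123 TPM over 88 cytosolic ribosomal protein genes, 49.7 and 37.0 TPM over 77 mitochondrial ribosomal protein genes, 21.2 and 18.6 TPM over 13 genes of the tricarboxylic acid cycle, and 0.02 and 0.03 TPM over all 21461 nuclear protein-coding genes. Members thus lay below cytosolic ribosomal proteins and above mitochondrial ribosomal proteins and tricarboxylic acid cycle genes in both libraries, on the TPM scale. Of all nuclear protein-coding genes 11241 were under 0.1 TPM in both libraries, so the median over all of them lies near the floor. The mitochondrially encoded genes, given below, had higher medians than the members, 145 and 122 TPM.

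By complex, the median over all members was 115 ± 43.8 TPM in complex I (SD, n = 2 libraries), 61.6 ± 48.7 TPM in complex II, 146 ± 1.1 TPM in complex III, 23.7 ± 14.0 TPM in complex IV and 66.6 ± 1.16 TPM in complex V. The medians of complexes III and V were alike in both libraries. They were 146 and 147 TPM for complex III and 65.8 and 67.5 TPM for complex V in replicates 2 and 1. This likeness is that of single genes: Uqcrfs1 in complex III, and Atp5o in replicate 2 and Atp5k in replicate 1 in complex V. TPM ratios of members, replicate 2 over replicate 1, ran from 0.24 (Uqcr10) to 1.90 (Uqcrq) in complex III. In complex V they ran from 0.40 (Atp5l) to 5.01 (Atp5h). On protein-coding transcripts alone Atp5h went the other way, with 6.38 and 15.46 TPM in replicates 2 and 1. Medians of the other complexes were not alike, at 146 and 84.0 TPM for complex I and 96.1 and 27.2 TPM for complex II. For complex IV they were 33.6 and 13.8 TPM. Of the 20 members of complex IV, 15 had at least 1 TPM in both libraries, and their median was 168 TPM. Leaving out the lowest members raises a median by itself, and this filter kept the alternative forms Ndufa4l2, Cox6b2 and Cox7a1. Without tissue-restricted forms the median was 126 TPM over 12 members, which include Cox7a2l, a factor of supercomplex assembly. Both of these medians are means of the 2 libraries, and their spread is not given.

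In complex I the highest members by mean TPM were accessory subunits. Ndufab1, the mitochondrial acyl carrier protein, had 1261 TPM in replicate 2 and 1945 TPM in replicate 1. Ndufa7 had 749 and 915 TPM, and Ndufb10, an accessory subunit of the membrane arm, had 856 and 793 TPM in replicates 2 and 1. On protein-coding transcripts alone Ndufa7 had 710 and 912 TPM, while Ndufab1 had 101 and 165 TPM and Ndufb10 29.6 and 14.5 TPM, below Ndufv3 (526 and 269 TPM) and Ndufb11 (523 and 286 TPM). The lowest by mean TPM of the whole gene were Ndufs4, an accessory subunit of the NADH-oxidizing arm whose loss causes a Leigh-like disease in mice, at 0.95 TPM in both libraries, Ndufb3 at 2.39 and 4.80 TPM, and Ndufa5 at 4.16 and 5.11 TPM, and Ndufa9, at 3.14 and 7.57 TPM, was below Ndufa5 in replicate 2. Ndufs4 had 71 and 40 counts, so it was detected, and it is the only complex I member under 1 TPM. From highest to lowest, the 35 members at 1 TPM or more differed by 528-fold in replicate 2 and 405-fold in replicate 1.

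The 7 conserved core subunits of complex I, which carry the flavin and the iron-sulfur clusters, were all expressed. Ndufv1, which binds NADH and the flavin, had 279 and 117 TPM in replicates 2 and 1. Ndufv2 had 151 and 51.4 TPM, and Ndufs1, with iron-sulfur clusters of the same arm, 71.4 and 20.8 TPM. In the arm that reduces ubiquinone, Ndufs7 had 259 and 183 TPM, Ndufs3 145 and 192 TPM, and Ndufs8 69.3 and 14.7 TPM. Of the core subunits named here, Ndufs3 alone was lower in replicate 2. On protein-coding transcripts alone Ndufv1 had 53.7 and 13.0 TPM and Ndufs3 37.0 and 51.3 TPM.

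Complex II, which also serves the tricarboxylic acid cycle, had the smallest spread of gene TPM among the complexes. Sdhb, the iron-sulfur subunit, had 141 TPM in replicate 2 and 51.3 TPM in replicate 1. Sdha, the flavoprotein that oxidizes succinate, had 64.9 and 38.7 TPM. Of the membrane anchors, Sdhc had 127 and 15.7 TPM and Sdhd 41.7 and 15.3 TPM. All 4 had the higher TPM in replicate 2, and the highest was 3.38 times the lowest there and 3.36 times in replicate 1, but the order differed between the libraries, in which no 2 neighbours in the order were apart by more than their spread. Most of the TPM of Sdha, 88.5% and 79.1% in replicates 2 and 1, was on a retained-intron transcript of 438 bases, and on protein-coding transcripts alone Sdha had 6.88 and 8.08 TPM. On that scale the SD of log2 levels within complex II was 1.5, against 0.86 for gene TPM.

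By mean TPM complex III ranged from Uqcr11, a small accessory subunit, with 1584 and 1893 TPM in replicates 2 and 1, to Uqcrc2, a core protein, with 6.12 and 11.7 TPM. The core protein that partners Uqcrc2 in the complex, Uqcrc1, had 429 and 589 TPM. The catalytic subunits lay between: Cyc1, cytochrome c1, had 251 and 360 TPM, and Uqcrfs1, the Rieske iron-sulfur protein, had 146 and 147 TPM. The remaining small subunits were Uqcrq at 310 and 163 TPM, Uqcr10 at 26.4 and 108 TPM, Uqcrh, the hinge protein, at 16.3 and 51.4 TPM, and Uqcrb at 13.6 and 9.80 TPM, the lowest of the complex in replicate 1. Messages of subunits that stand in equal number in the complex therefore differed by 259-fold in replicate 2 and 193-fold in replicate 1, and 5 of the 8 steps between neighbours in the order were larger than the spread between libraries.

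Cycs, the mobile carrier between complexes III and IV, was low for its group at 4.40 TPM in replicate 2 and 2.90 TPM in replicate 1, from 711 and 202 expected counts. Its expected count was not whole, so some of its reads were divided with other features. Its germ-cell counterpart Cyct had 0 counts in both libraries, and against the 3-count limit per library Cycs was at least 39.8-fold higher in replicate 2 and at least 15-fold higher in replicate 1.

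By mean TPM complex IV held the 2 highest members of all, although in replicate 2 Atp5b of complex V was above Cox5b. Cox6a1 had 2931 TPM in replicate 2 and 4044 TPM in replicate 1, and Cox5b, a zinc-binding subunit, had 2054 and 3174 TPM. Cox5a, on the matrix side, had 780 and 996 TPM, and Cox4i1, a subunit through which ATP regulates the enzyme, had 298 and 175 TPM. At the other end Cox7b2 and Cox8b had 0 counts in both libraries, and Cox8c, 1 count in replicate 1 and 0 in replicate 2. Among members at 1 TPM or more the lowest were Ndufa4, with 7.49 and 6.95 TPM, Cox7a2l, a factor of supercomplex assembly, with 9.29 and 7.25 TPM, and Cox6c, with 9.57 and 11.2 TPM.

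Ndufa4 was named for complex I but is known as a subunit of complex IV. Its paralogue Ndufa4l2, known as a hypoxia-induced gene in other cells, had 470 and 1085 TPM in replicates 2 and 1, from 20581 and 26862 counts, against 137 and 73 counts for Ndufa4. On the log2 scale of TPM + 0.1, which understates differences of low genes, Ndufa4 minus Ndufa4l2 was −6.61 ± 0.93 (SD, n = 2). Ndufa4l2 lies at chr10:127514967-127517154 on the plus strand and Ndufa4 at chr6:11900292-11907497 on the minus strand. Exons of Ndufa4l2 overlap those of Shmt2 on the opposite strand, and whether reads were counted by strand is not given in the sources used here, so the reads of these genes may not have been told apart.

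For several pairs of alternative complex IV subunits, the widespread form was the one expressed. Cox4i1 exceeded Cox4i2, the lung and hypoxia form with 0.29 and 0.17 TPM, by 9.46 ± 0.16 on the log2 scale of TPM + 0.1. Cox6a1 exceeded Cox6a2, the heart and muscle form with 0.66 and 0.51 TPM, by 12.30 ± 0.55. Cox8a had 501 and 432 TPM, at least 1870-fold and at least 943-fold above the 3-count limit for Cox8b, the muscle form, in replicates 2 and 1. Cox7b, at 9.58 and 12.3 TPM, was at least 67.1-fold and at least 49.1-fold above that limit for Cox7b2. Cox6c, at 9.57 and 11.2 TPM, was at least 13.2-fold and at least 9.58-fold above it for its processed pseudogene Cox6c2, which also had 0 counts.

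Besides Ndufa4 and Ndufa4l2, the order of TPM was the other way in 2 pairs. Cox7a1, the heart and muscle form, had 57.2 and 37.1 TPM in replicates 2 and 1, while Cox7a2, the widespread form, had 10.1 and 12.7 TPM, a log2 difference of −2.02 ± 0.68 for Cox7a2 over Cox7a1. In counts the pair was closer, at 327 and 234 for Cox7a2 against 648 and 245 for Cox7a1, with a difference of −0.53 that was within 2 times the range between the libraries. Cox6b2, the form known from testis, had 238 and 326 TPM, while Cox6b1, the widespread form, had 152 and 121 TPM. The difference of −1.04 ± 0.55 for Cox6b1 over Cox6b2 was not larger than 2 times the range between the libraries, although Cox6b2 was higher in both. From protein-coding transcripts alone Cox6b2 had 125 and 183 TPM, below Cox6b1 in replicate 2 and above it in replicate 1. Cox6b2 lies at chr7:4751792-4753094 and Cox6b1 at chr7:30616861-30626151, both on the minus strand, and Cox6b2 had 4969 and 3933 whole-number counts. The 4 testis markers had 0 TPM, and the heart and muscle markers summed to 0.22 and 0.01 TPM in replicates 2 and 1.

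**Figure D1:**
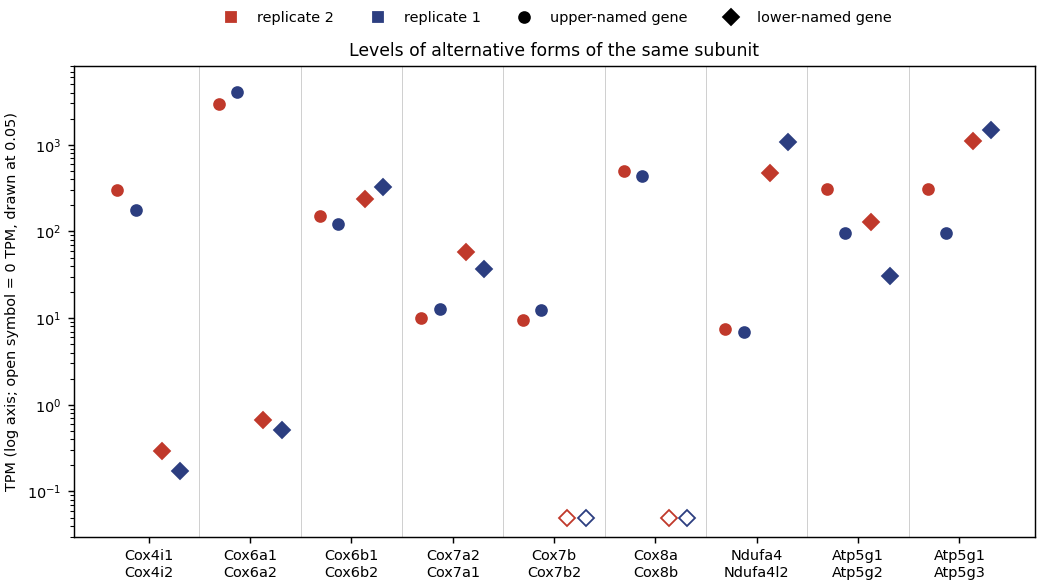
TPM (log axis) of alternative forms of the same subunit in replicate 2 (first colour) and replicate 1 (second colour), with circles for the upper-named gene and diamonds for the lower-named gene of each pair and open symbols for 0 TPM. Cox4i1, Cox6a1, Cox7b and Cox8a lie above their counterparts, while Cox6b2, Cox7a1, Ndufa4l2 and Atp5g3 lie above theirs.

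In complex V the catalytic head was uneven. Atp5b, the beta subunit that makes ATP, had 2208 TPM in replicate 2 and 2738 TPM in replicate 1, and Atp5d, the delta subunit, had 1193 and 1529 TPM. Atp5a1, the alpha subunit that pairs with beta, had 613 and 471 TPM. On protein-coding transcripts alone Atp5a1 had 191 and 37.2 TPM and Atp5b 134 and 177 TPM, so the order of alpha and beta turned in replicate 2. Atp5c1, the gamma subunit of the central stalk, had 17.0 and 13.4 TPM and Atp5e, the epsilon subunit, 2.40 and 1.29 TPM from 93 and 38 counts. Highest over lowest among the 16 expressed members was 920-fold and 2122-fold in replicates 2 and 1. Other low members were Atp5mpl, the small proteolipid, at 8.17 and 12.6 TPM, and Atp5s, which the rule takes by its symbol though it is a coupling factor and not a structural subunit, at 0.22 and 0.34 TPM.

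The c ring of complex V is made from 3 genes that encode the same mature protein. Atp5g3 had 1110 and 1465 TPM in replicates 2 and 1, Atp5g1 310 and 97.0 TPM, and Atp5g2 127 and 31.0 TPM. On protein-coding transcripts alone Atp5g3 had 467 and 840 TPM, while the values of Atp5g1 and Atp5g2 were nearly unchanged. Atp5g3 was the highest in both libraries, but its differences from Atp5g1 (−2.88 ± 1.47 for Atp5g1 over Atp5g3) and from Atp5g2 (−4.34 ± 1.72 for Atp5g2 over Atp5g3) were within 2 times the range between libraries. Atp5g1 exceeded Atp5g2 by 1.47 ± 0.25 in TPM, and the sign turned to −1.25 when counts were divided by the length of the longest protein-coding transcript. In undivided counts the difference was 1.39. The longest protein-coding transcript has 4715 bases in Atp5g1 and 753 in Atp5g2. A transcript of 596 bases held 98.3% and 97.1% of the TPM of Atp5g1 in replicates 2 and 1. The estimated counts of Atp5g2 carried a deposited posterior SD of 70.7 and 22.3 counts on 3973 and 473 counts, the largest among members.

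Ndufb4, of the membrane arm of complex I, has a processed pseudogene, Ndufb4c, at chr15:73809507-73809896. Ndufb4c had 1640 and 1917 TPM in replicates 2 and 1, from 20900 and 14196 expected counts, while Ndufb4 had 57.4 and 88.2 TPM from 2543 and 2214. The posterior SD of the count was the same in both genes, 23.6 in replicate 2 and 21.4 in replicate 1. The levels of Ndufb4 and Ndufb4c are therefore uncertain to the extent that the reads of such near-identical copies are divided by the estimate. In all, 15 members had an expected count that was not whole in at least 1 library, and 11 rows carried a pseudogene's symbol of these families, of which 2 had counts. Of the 16 pairs, 15 had both genes in the tables, and in 11 of these the difference was larger than the spread. These 11 hold differences in either direction and include the uncertain pair of Ndufb4 and Ndufb4c. Cox6c2, Cox7b2, Cox8b and Cyct had 0 counts in both libraries. Their differences therefore rest on the first gene's level and the 0.1 added to TPM.

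The members' levels rested on which transcript received the reads. Of 80 expressed members, 13 had a leading transcript not annotated as protein coding (16.3%, against 21.0% of 8062 expressed nuclear protein-coding genes): 7 retained introns, 5 processed transcripts and 1 target of nonsense-mediated decay. They were Ndufab1, Ndufb10, Ndufa12, Ndufb2, Ndufv1, Ndufs3 and Ndufa5 of complex I, Sdha of complex II, and Atp5b, Atp5g3, Atp5a1, Atp5f1 and Atp5h of complex V, and there was none in complexes III and IV. In Atp5b a transcript of 343 bases, Atp5b-207, held 93.9% and 93.5% of the gene's TPM in replicates 2 and 1. Protein-coding transcripts held 63.5% and 50.2% of the TPM of complex I, 76.7% and 71.0% of complex II, 98.3% and 98.7% of complex III, 97.6% and 97.8% of complex IV, and 44.4% and 44.6% of complex V. Over all members the share was 73.1% and 72.4%.

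**Figure D2:**
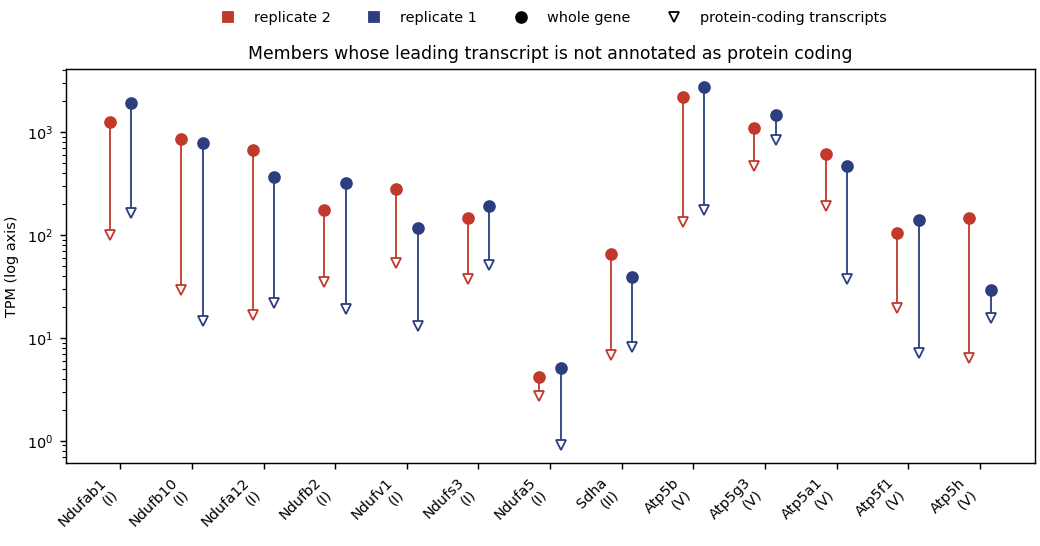
TPM (log axis) of the 13 expressed members whose leading transcript is not annotated as protein coding, for the whole gene (filled circles) and for its protein-coding transcripts (open triangles), in replicate 2 (left of each pair) and replicate 1. Atp5b has 2208 and 2738 TPM for the gene and 134 and 177 TPM on protein-coding transcripts.

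Complex I messages were more often higher in replicate 2. Of 84 members tested, 42 were called different between the libraries by an exact two-sided binomial test on scaled counts (Benjamini-Hochberg adjusted p under 0.05 over 11230 genes, and at least 1.5-fold), 34 higher in replicate 2 and 8 higher in replicate 1. Among all genes tested 41.4% were called, 24.3% higher in replicate 2 and 17.1% higher in replicate 1. Of cytosolic ribosomal protein genes 54 of 83 were called (38 higher in replicate 2 and 16 in replicate 1). The counts were 35 of 77 (25 and 10) for mitochondrial ribosomal protein genes and 8 of 13 (7 and 1) for tricarboxylic acid cycle genes. Complex I had 24 of 36 called, 21 higher in replicate 2 and 3 higher in replicate 1, and 6 of its 7 core subunits were among the 21. Complex II had 3 of 4, all higher in replicate 2. Complex III had 3 of 9 (1 higher in replicate 2 and 2 in replicate 1), complex IV 4 of 17 (3 and 1) and complex V 7 of 17 (5 and 2), and Cycs was higher in replicate 2. The test compares 2 libraries of the same label, not conditions, and covers counting error only. It used counts of whole genes. On protein-coding transcripts alone, TPM in replicates 2 and 1 went against the call in Ndufa12 (16.86 and 22.05), Ndufb2 (34.71 and 19.29) and Atp5h (6.38 and 15.46). The other called members kept their direction there.

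The largest ratio among members was that of Ndufa2, an accessory subunit of complex I, with 3130 counts (138 TPM) in replicate 2 and 100 counts (7.72 TPM) in replicate 1, a scaled ratio of 18.9 (95% counting interval 15.5 to 23.4). Cox7c, a small subunit of complex IV, had 214 and 14.9 TPM and a ratio of 14.9 (12.8 to 17.5). Sdhc had a ratio of 9.96, Ndufb5 of 8.72 from 1575 and 109 counts, and Atp5g2 of 5.09. Sdhb and Sdhd had ratios of 2.97 and 2.93, so that 3 of the complex II subunits moved the same way by different amounts, while Sdha, at 1.22, was under the 1.5-fold minimum.

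In the other direction Uqcr10, with 396 and 944 counts in replicates 2 and 1, had a ratio of 0.255 (0.226 to 0.286, adjusted p = 9.14e-129 by the exact binomial test). Uqcrh had a ratio of 0.327, Atp5l, the g subunit of ATP synthase, 0.421, Ndufa9, an accessory subunit near the quinone site, 0.445, and Ndufa4l2 0.464. Subunits of the same complex thus went opposite ways between the libraries, with Uqcrq at 1.97 and Uqcr10 and Uqcrh under 0.35 in complex III. Just inside the fold minimum were Ndufa11 at 1.56 and Cox7a1 at 1.60, and just outside it Atp5j2 at 1.49 and Ndufa3 at 0.667.

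**Figure D3:**
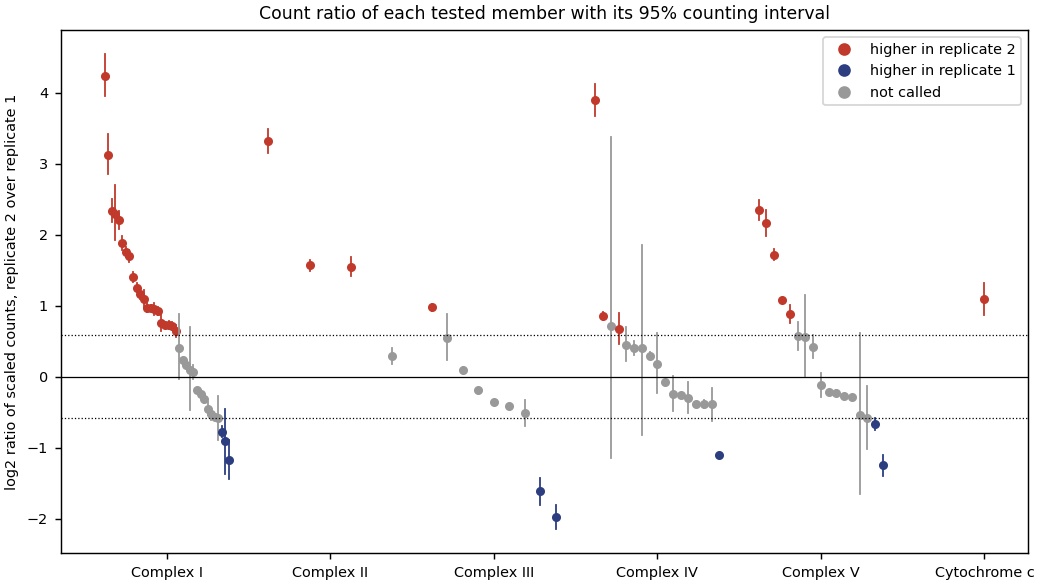
Log2 ratio of scaled counts, replicate 2 over replicate 1, of each tested member by complex, with the 95% counting interval as a bar, dotted lines at 1.5-fold, and colour for the call. In complex I, 21 members lie above the upper line and are called higher in replicate 2, against 3 called higher in replicate 1.

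The median log2 ratio of TPM + 1, replicate 2 over replicate 1, was 0.32 over the 80 members with a mean TPM of at least 1. Over all nuclear protein-coding genes with that level it was −0.09. It was 0.30 over cytosolic ribosomal protein genes, 0.46 over tricarboxylic acid cycle genes and 0.06 over mitochondrial ribosomal protein genes, so a positive ratio was not particular to the members. Among the complexes the median ratio was 0.62 in complex I, 1.42 in complex II, −0.46 in complex III, −0.20 in complex IV and 0.02 in complex V. By level, 15 of 26 members with a mean of 100 to 500 TPM were called higher in replicate 2 and 1 higher in replicate 1, while of the 14 with 500 TPM or more 2 were higher in replicate 2 and 1 in replicate 1. Over all nuclear protein-coding genes of 100 to 500 TPM, 183 of 1075 were called higher in replicate 2 and 222 higher in replicate 1, and of the 274 with 500 TPM or more 61 and 80 were. The rank order of members was largely shared by the libraries, with a Spearman correlation across the 80 genes of 0.89, given as a description since genes are not replicates.

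Length and base composition of the members are given beside these levels. The longest protein-coding transcript had a median of 892 bases over expressed members, against 2913 bases over 8062 expressed nuclear protein-coding genes. The 20 highest expressed members had a median GC content of 55.4% and the 20 lowest 49.6%. Across the 80 members the Spearman correlation of GC content with mean TPM was 0.37, and across 8044 expressed genes it was 0.33, both as descriptions of levels that share libraries and length division. GC content had a correlation of −0.05 with the replicate ratio of members. Exons of 30 members overlap an exon of another gene, mostly on the opposite strand, as Ndufa2 does with Tmco6, Ndufb5 with Mrpl47, Cox4i1 with Emc8 and Atp5j with Gabpa.

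The mitochondrially encoded partners of these subunits were measured in the same libraries. Over 13 genes the median TPM was 145 for replicate 2 and 122 for replicate 1. mt-Cytb of complex III had 710 and 457 TPM and mt-Co1 of complex IV 218 and 122 TPM in replicates 2 and 1. mt-Co2 had 9.35 and 0.27 TPM and mt-Co3 0.26 and 13.5 TPM, from 269 and 4.44 counts for mt-Co2 and 8.95 and 261 counts for mt-Co3. These counts are not whole, so reads of these genes were divided with other features and their levels are uncertain. In this list 11 of 13 were called, 9 higher in replicate 2 and 2 higher in replicate 1, where 41.4% of all genes tested were called, 24.3% and 17.1% by direction.

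Assembly factors were measured by the same lists. Medians in replicates 2 and 1 were 15.3 and 7.36 TPM over 14 factors of complex I, 2.02 and 3.36 TPM over 4 of complex II, 3.13 and 4.87 TPM over 6 of complex III, 26.0 and 15.4 TPM over 19 of complex IV and 60.5 and 64.6 TPM over 4 of complex V. Cox17, the copper chaperone of complex IV, was the highest at 445 and 272 TPM, and Atpif1, the inhibitor of ATP synthase also known for a role in haem synthesis in zebrafish, had 431 and 104 TPM. Uqcc2, an assembly factor of complex III, had 248 and 240 TPM. Of factors tested, those of complex I had 9 of 14 called (8 higher in replicate 2 and 1 in replicate 1), complex II 2 of 4 (0 and 2), complex III 2 of 5 (1 and 1), complex IV 10 of 19 (8 and 2) and complex V 1 of 4 (1 and 0), where 41.4% of all genes tested were called. Cox16, which helps to build the Cox2 module, had 27.7 and 1.62 TPM and a ratio of 15.4.

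Of 12 regulators of mitochondrial genes, 10 were expressed. Nrf1 had 11.4 and 11.8 TPM, Gabpa 3.81 and 4.94 TPM and Yy1 107 and 290 TPM in replicates 2 and 1. Esrra, an orphan nuclear receptor that drives oxidative genes, had 29.4 and 61.1 TPM. Of the coactivators, Ppargc1a had 0 counts, while Ppargc1b had 9.46 and 14.9 TPM and Pprc1 22.8 and 17.1 TPM. Tfam, a packaging protein and transcription factor of mitochondrial DNA, had 5.56 and 3.05 TPM. Of the 11 tested, 1 was called higher in replicate 2 (Tfam) and 3 higher in replicate 1 (Esrra, Tfb1m and Yy1), a share of 36.4%, near the 41.4% of all genes tested.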

How the data were processed

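PolyA-selected RNA of G1E-ER4 cells was measured in 2 paired-end libraries, per the labels. The build is mm10 and the annotation GENCODE M4, per the deposited notes. For the aligner, the strand setting and software versions the sources used here give nothing. The column names are those of RSEM, per the file headers.

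Expected counts, as deposited, estimate fragments per gene and split a read that matches several transcripts or genes. The deposited TPM divides them by effective length and scales the table to 1e6. The deposited FPKM divides by effective length and library size and was used in alternatives only. The isoform percent, also deposited, is the share of a gene's TPM that falls on a transcript, and the posterior SD of a count is a deposited score of the uncertainty of that division. A gene whose reads go to a short transcript gets a high TPM.

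Symbols, biotypes and coordinates came from GENCODE M21 on GRCm38, by identifier without version, for 42462 of 43346 gene rows. The 26345 rows that name no gene held 2 counts in replicate 1 (5.21e-06% of its total) and 0 in replicate 2 and were left out. Expected counts were rounded for the binomial test and scaled by TMM (edgeR 4.0.16, R 4.3.3). Genes with at least 10 counts in sum were tested, and a call needed an adjusted p under 0.05 and a fold of 1.5 or more. edgeR's quasi-likelihood test needs replicated groups, which this design lacks. The binomial script was tested on simulated data. Pair differences use TPM + 0.1 and count as larger than the spread where both libraries have 1 direction and the mean is over 2 times their range. Intervals (95%) and the 3-count limit cover counting error only. Neighbours in an order of levels were counted apart where their library ranges did not overlap. Longest protein-coding transcripts gave GC content and length. RefSeq promoters were matched by Ensembl identifier or symbol. Text statistics used Python 3.11.15, pandas 2.3.3 and scipy 1.17.1.

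The members, lists and pairs were chosen with earlier results of these data known. The text names the 3 highest and 3 lowest members of each complex, core subunits of complex I, complexes II and III, both genes of each pair, undetected members, the 5 largest called ratios each way at a mean of at least 5 TPM, and members whose leading transcript is not protein coding. Values of some single genes are not reported here. The promoters shown and values of mitochondrially encoded genes, assembly factors and regulators were chosen after values were seen.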

Additional observations from a re-analysis of the deposited data

How the results depend on the processing

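Depth, 1 condition and 2 libraries of the same biosample limit these results: low members rest on few counts in the shallower library, and no value compares treated with untreated cells. No paired analysis was possible because all samples belong to 1 group. Choosing protein-coding transcripts only lowered the median of complex I to 65.6 TPM and that of complex V to 40.3 TPM. Library-scaled counts per kilobase of the longest protein-coding transcript, an alternative chosen after seeing the data, gave 58.4 for complex I, 97.3 for complex III and 33.2 for complex V. Restricting complex IV to members with at least 1 TPM gave 168 TPM. Leaving out its tissue-restricted forms, but not Cox7a2l, gave 126 TPM. For complex V, members with at least 1 TPM gave 81.3 TPM, and so did leaving out Atp5s. Without members whose leading transcript is not protein coding, also chosen after seeing the data, complex V had 39.0 TPM. With 1 library left out, medians ranged from 84.0 to 146 TPM in complex I, 27.2 to 96.1 in complex II, 146 to 147 in complex III, 13.8 to 33.6 in complex IV and 65.8 to 67.5 in complex V. The count of members called between libraries was 74 with no fold minimum (44 higher in replicate 2 and 30 in replicate 1, where 73.5% of all genes were called) and 26 at a fold of 2 (21 and 5, where 21.8% were called). The median log2 replicate ratio of 0.32 was 0.16 with TPM + 10, 0.49 with FPKM + 1 and 0.14 with no minimum TPM. The SD of log2 levels within a complex, taken as the median over complexes and 2.60 as the mean of both libraries, was 2.80 for counts not divided by length and 2.44 per coding kilobase, and 2.49 to 2.70 with 1 library left out. Within complex II it was 0.86 in TPM and 1.5 on protein-coding transcripts. Of the pairs, Cox7a2 over Cox7a2l turned to −0.16 in counts and Atp5g1 over Atp5g2 to −1.25 per coding kilobase; the cause was not tested. Cox7a2 over Cox7a1 was −0.53 in counts and −1.58 per coding kilobase, no longer larger than the spread. Atp5g1 over Atp5g3 became larger, at −5.80 per coding kilobase. In both values of Atp5g1 per coding kilobase its counts were divided by 4715 bases, while its leading transcript has 596 bases. Of 144 values recomputed, 49 for whole comparisons and 66 for single pairs or complexes kept their direction and side of the threshold or moved within the spread. For complex medians and the SD of log2 levels, that spread was the SD of the same 2 libraries. Leaving out 1 library could therefore not move these values beyond it, and these settings are no evidence of stability.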

Other observations

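Outside the complexes, Ucp2, an inner membrane carrier of the uncoupling protein family, had 1859 TPM in replicate 2 and 1670 TPM in replicate 1, near the level of Uqcr11. Ucp1 had 0 counts and Ucp3 0.05 and 0.03 TPM. Dmac2, an assembly-related gene, and Usmg5, a small ATP synthase subunit, do not carry the symbols of the rule. Dmac2 had 33.5 and 22.3 TPM and Usmg5 17.9 and 6.26 TPM in replicates 2 and 1.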
